A study of Arabidopsis thaliana with 9 samples.

Results

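The genes described are the 46 loci of Arabidopsis thaliana that encode the cytokinin receptors, their phosphorelay and response regulators, and the enzymes that make and break down the hormone. They were chosen by locus number and gene family, not by a measured value, although earlier results of these data were known at the time. They comprised 3 receptor genes (AHK), 6 phosphotransmitter genes (AHP), 11 type-B and 10 type-A response regulator genes (ARR), 9 isopentenyltransferase genes (IPT) and 7 cytokinin oxidase/dehydrogenase genes (CKX), out of 27444 protein-coding genes on the 5 nuclear chromosomes. The data were LFY binding peaks from chromatin immunoprecipitation and sequencing (ChIP-seq) in root explants. LEAFY (LFY) is a helix-turn-helix transcription factor that directs cells to floral fate. All samples came from plants of the Landsberg erecta accession with no mutation listed in the labels and with the 35S:LFY-GR transgene, in which the constitutive 35S promoter drives a fusion of LFY with the steroid-responsive part of the glucocorticoid receptor (GR). Roots of seedlings aged 3 weeks were kept for 5 days on callus inducing medium (CIM). The 3 groups of 3 samples were input chromatin with no treatment listed, anti-LFY ChIP after mock treatment, and anti-LFY ChIP after 5 µM dexamethasone (dex). Dex is the steroid that lets the fusion protein enter the nucleus. The treatment lasted 1 h in the sample labels and 24 h in the text describing the series. The medium held the auxin 2,4-D and the cytokinin kinetin in both ChIP groups, so every value below was measured with external cytokinin present. Each ChIP replicate pooled several immunoprecipitations. The labels call the tissue callus, and a peak list holds no transcript levels with which to check that identity.

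Cytokinins are adenine-derived hormones that promote cell division, shoot formation and the growth of meristems. The AHK receptors sense the hormone and pass a phosphate to the AHP proteins, which carry it to the nucleus. There it activates the type-B ARR transcription factors, whose early target genes include the type-A ARR genes, and the type-A proteins in turn damp the pathway. IPT enzymes carry out the first step of synthesis, and CKX enzymes degrade the hormone irreversibly.

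LFY binding peaks were found at 4 of the 46 cytokinin genes: ARR7, IPT5, IPT9 and CKX5. A gene was counted as bound when the summit of a peak, its point of highest enrichment, lay in the gene or up to 3 kb upstream of its start. By the same rule 4.32% of all protein-coding genes were bound (1185 of 27444), against 8.70% of the cytokinin genes. The difference rests on 4 genes and no test of the set was made. The receptors, phosphotransmitters and type-B regulators, 20 genes in all, had no summit by this rule. The authors pooled the 3 dex libraries and the 3 mock libraries and called peaks once between the pools. Spread between replicates is therefore unknown for every value, and the intervals given cover counting error alone.

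**Figure D1:**
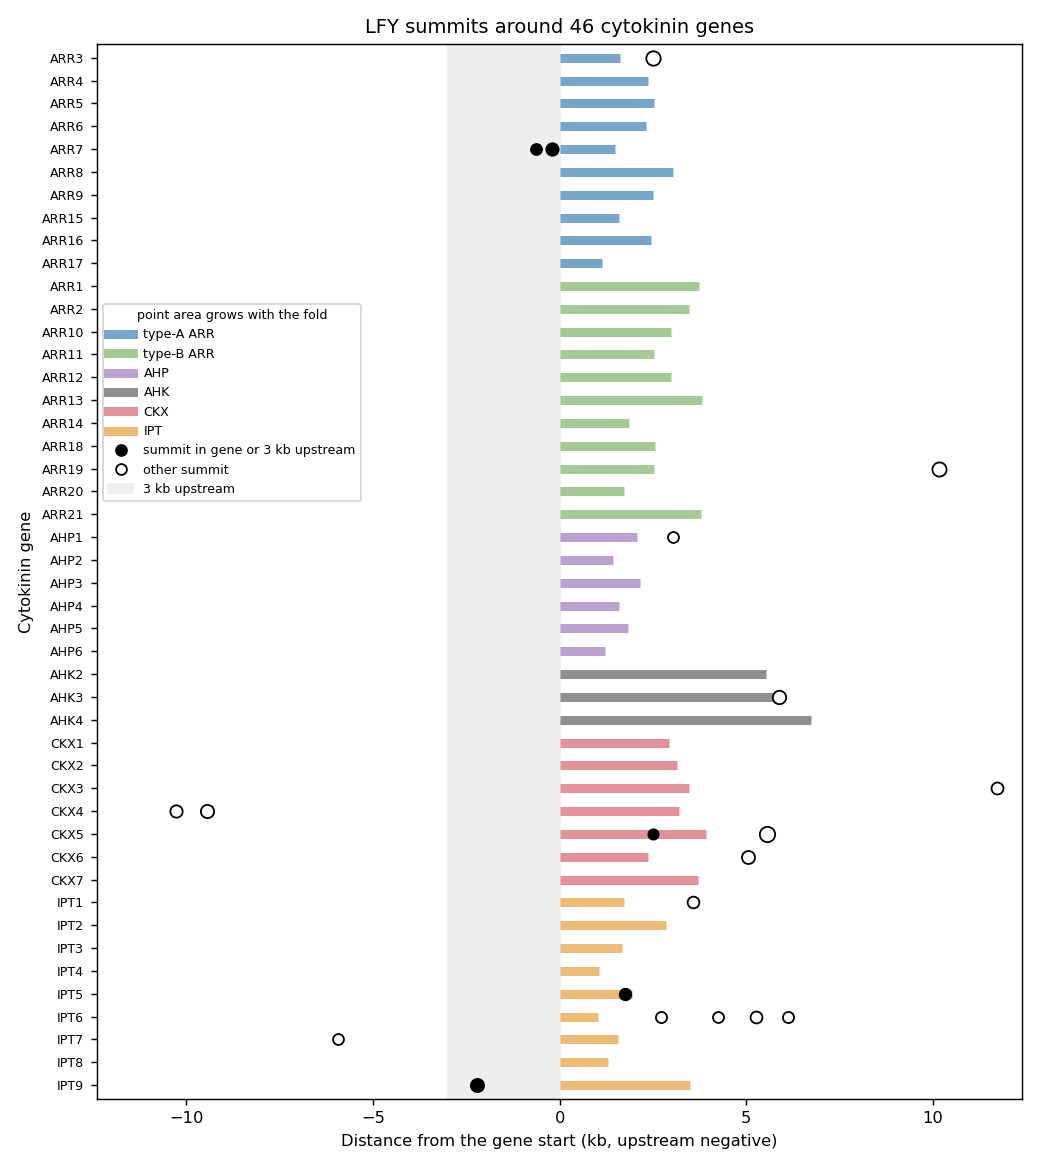
LFY summits within 12 kb of the start of each of the 46 cytokinin genes, with the distance from the gene start in kb on the x axis (upstream negative) and 1 gene per row. Coloured bars are the gene bodies by class, the shaded band is the 3 kb upstream, and point area grows with the fold: filled points, the 5 summits counted as bound, lie at ARR7, CKX5, IPT5 and IPT9, while the open points lie mostly past the ends of genes.

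The sequence under the bound summits is given first, since LFY recognises a known motif. The search used CCANTGG (N is any base), the core of the LFY consensus, which is a palindrome and so reads the same on both strands. Sequences are the plus strand of TAIR10, taken from the RefSeq copy of that assembly (TAIR10.1). It is the Columbia reference, and a site that differs in Landsberg erecta would not be seen. The first set shows 61 bases centred on 4 of the 5 summits, with the best match to CCANTGG in capitals where it falls inside. The fifth summit, at IPT5, lay in a 3′ UTR and is shown only by its match.
ARR7 near summit, chr1:6579491-6579551: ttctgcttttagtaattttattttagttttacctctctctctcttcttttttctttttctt
ARR7 far summit, chr1:6579916-6579976: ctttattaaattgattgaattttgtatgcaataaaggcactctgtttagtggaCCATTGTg
CKX5 intron summit, chr1:28315839-28315899: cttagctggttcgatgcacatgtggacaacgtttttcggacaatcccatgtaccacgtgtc
IPT9 summit, chr5:6773381-6773441: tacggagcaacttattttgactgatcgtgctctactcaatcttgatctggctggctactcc

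The second set shows the best match near each of the 5 summits with 11 bases on either side. Only the match at IPT9 is exact. The others differ from CCANTGG at 1 position.
ARR7 near summit, chr1:6579596-6579624: atgatctaaaaCCGGTGGttattgctcaa
ARR7 far summit, chr1:6579958-6579986: tgtttagtggaCCATTGTgtgtgatttgt
CKX5 intron summit, chr1:28315767-28315795: cccaatctggaCCATCGGatttggtcaca
IPT5 summit, chr5:6361967-6361995: ccctttttagtCCGTTGGatcctttattc
IPT9 summit, chr5:6773540-6773568: gagtcggccaaCCAATGGgaaggacatca

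An exact core was therefore present within 150 bp of 1 of the 5 cytokinin summits. Among all 1177 nuclear summits the share was 13.1% (154 summits), and in windows of the same width 1000 bp to the left and to the right of them it was 3.74% and 4.33%. A match with up to 1 mismatch was present at 5 of 5 cytokinin summits. Such matches were common: 73.6% of all summits had one, as did 50.3% of the windows to the left, including 3 of the 5 windows to the left of the cytokinin summits. The best matches lay 89 bp and 26 bp from the near and far ARR7 summits, 88 bp from the CKX5 summit, 23 bp from the IPT5 summit and 143 bp from the IPT9 summit. With the narrower limit of 50 bp no cytokinin summit had an exact core.

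AHK2, AHK3 and AHK4 encode the membrane histidine kinases that bind cytokinin. None of the 3 had a summit in the gene or 3 kb upstream, beside 4.32% of all protein-coding genes. At AHK3 a summit lay 143 bp past the end of the gene, with a fold of 4.61 and 151 dex reads against 25 mock reads, and its interval (chr1:9492562-9492972) reached back into the gene. This summit was also 74 bp upstream of AT1G27330, the next gene, and 2569 bp upstream of LCR. The fold here and below is that of the peak caller: scaled dex pileup over local mock background, each with 1 added. The nearest summits to AHK2 and AHK4 were 21607 bp and 42421 bp away.

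The AHP1 to AHP5 proteins relay the phosphate, whereas AHP6 lacks the histidine that accepts it and acts as an inhibitor. None of the 6 genes was bound, beside 4.32% of all protein-coding genes. AHP1 was the only gene of this class with a summit within 10 kb: it lay 951 bp past the end of the gene and 40 bp upstream of DXPS1. That summit was among the weakest of the list, with 72 dex reads, the lowest number at any nuclear summit, a fold of 3.04 and a −log10 q-value of 10.06 where the list was limited to values of at least 10. For the other 5 genes the nearest summit was between 54566 bp (AHP5) and 244816 bp (AHP2) away.

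The 11 type-B ARR genes encode the DNA-binding activators of the cytokinin response. None of the 11 was bound, beside 4.32% of all protein-coding genes. An exact core lay in the gene or 3 kb upstream at 7 of the 11 (63.6%), against 56.4% of all protein-coding genes. The density was 1.54 cores per 10 kb, against 1.72 over all genes. ARR10 held 3 cores. The nearest summit to any gene of the class lay 7644 bp past the end of ARR19, with a fold of 5.11. At ARR1, ARR10 and ARR12, which carry much of the transcriptional response to cytokinin, the nearest summits were 109355 bp, 31304 bp and 108527 bp away.

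The 10 type-A ARR genes encode short regulators without a DNA-binding domain that act as negative feedback on the pathway. ARR7 was the only bound gene of the class, and it had 2 summits, both upstream. A second summit was found at 1 of the 46 cytokinin genes and at 0.543% of all protein-coding genes. ARR7 (AT1G19050, chr1:6577833-6579314, minus strand) is one of the type-A genes that the meristem factor WUSCHEL represses in the shoot apex.

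The ARR7 summit nearer to the gene was 207 bp upstream of its start, in a peak at chr1:6579355-6579721. It had 93 dex reads over a mock background of 18.0 reads, the genome-wide floor, and a fold of 3.91 with a −log10 q-value of 19.4. After scaling to the mock depth, dex signal was 4.08 times the background (95% interval 3.29 to 4.99). The far summit was 632 bp upstream, in a separate peak at chr1:6579849-6580074. It had 73 dex reads over the same floor, a fold of 3.08, a −log10 q-value of 10.6, and a ratio of 3.20 (2.51 to 4.02). The intervals of both summits overlap, and the difference between their heights was not tested. No other annotated gene had either summit in its body or the 3 kb upstream of it. The window of ARR7 held no exact core.

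The other 9 type-A genes had no summit by the main rule, under which 4.32% of all protein-coding genes were bound. At ARR3 a summit lay 880 bp past the end of the gene, with 186 dex reads against 27 mock reads, a fold of 5.27, a −log10 q-value of 54.0 and a ratio of 5.43 (3.61 to 8.46). Its fold and q-value were above those of the 5 bound cytokinin summits, although the intervals of the ratio overlapped. It carried an exact core 23 bp from its centre and is shown for that reason, with a second, imperfect match also in capitals.
ARR3 end, chr1:22064707-22064767: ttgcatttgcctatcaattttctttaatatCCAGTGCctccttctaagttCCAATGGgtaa

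No other annotated gene had that summit in its body or 3 kb upstream. ARR15, the closest relative of ARR7, had an exact core in its window, and its nearest summit was 47571 bp away. For ARR5, whose promoter is widely used as a reporter of cytokinin response, the distance was 134292 bp, and for ARR6 it was 82470 bp.

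Of the 9 IPT genes, IPT2 and IPT9 encode enzymes that modify tRNA and the other members act on free adenine nucleotides. IPT5 and IPT9 were bound, 2 of the 9 genes, beside 4.32% of all protein-coding genes. IPT5 (AT5G19040, chr5:6361776-6363713, minus strand) had its summit inside the gene, in the 3′ UTR, 182 bp before the end of the gene and 1755 bp from its start. The peak at chr5:6361802-6362243 had 103 dex reads against 23 mock reads, a fold of 3.42, a −log10 q-value of 18.0 and a ratio of 3.53 (2.23 to 5.81). The same summit was 2800 bp upstream of the neighbouring gene AT5G19030.

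IPT9 (AT5G20040, chr5:6767701-6771190, minus strand) had the highest fold of the 5 bound summits. It lay 2221 bp upstream, in a wide peak of 924 bp at chr5:6773205-6774128, with 106 dex reads over the background floor, a fold of 4.45, a −log10 q-value of 25.8 and a ratio of 4.65 (3.80 to 5.62). This was the only one of the 5 bound summits that the stricter limit of 20 on the −log10 q-value kept, and at that limit 1 of 46 cytokinin genes was bound against 2.72% of all genes. The summit was closer to 2 other genes, being 691 bp upstream of AT5G20050 and 1159 bp upstream of AT5G20045, which lies between the summit and IPT9. It was also 2662 bp upstream of AT5G20060. When each summit was given only to the gene with the nearest start, IPT9 was no longer bound. The window of IPT9 held 4 exact cores, the highest number among the 46 genes. It was 6.49 kb long, against a median of 5.475 kb for the 46 genes. Only 1 of these cores lay within 150 bp of the summit.

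Among the IPT genes without a summit by the main rule, IPT1 had one 1827 bp past its end, with a fold of 3.49 and 83 dex reads against 18 mock reads. IPT6 had one 1685 bp past its end, with a fold of 3.18 and 78 dex reads, which was also in a noncoding part of an exon of AT1G25400 and 1564 bp upstream of the RNA gene AT1G08975. It was the first of a row of 4 summits at 2.71, 4.24, 5.25 and 6.11 kb from the start of IPT6, with folds from 3.06 to 3.59. At IPT7 the nearest summit was 5927 bp upstream, outside the 3 kb limit, with a fold of 3.04. The remaining IPT2, IPT3, IPT4 and IPT8 had no summit within 10 kb.

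CKX5 was the bound gene among the 7 CKX genes, beside 4.32% of all protein-coding genes. It is one of the oxidase genes that act in the inflorescence meristem. CKX5 (AT1G75450, chr1:28314458-28318375, minus strand) had a summit in an intron, 2506 bp from its start, in a peak at chr1:28315728-28316072. That summit had 91 dex reads against 26 mock reads, a fold of 2.69 and a −log10 q-value of 10.3, and its ratio was 2.76 (1.77 to 4.44). It was the weakest of the 5 by fold, at rank 1161 of 1177 nuclear summits, and just inside the q-value limit. The annotated noncoding RNA genes AT1G09553 and AT1G09557 had their starts 1169 bp and 2270 bp from it.

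A stronger summit lay 1637 bp past the end of CKX5. It had 159 dex reads against 20 mock reads, a fold of 6.01, a −log10 q-value of 52.6 and a ratio of 6.26 (3.92 to 10.5). It was 558 bp upstream of UBC16, a ubiquitin-conjugating enzyme gene on the opposite strand, and its exact core was 41 bp from the summit. That core is shown in capitals.
CKX5 end, chr1:28312848-28312876: ctataacacatCCAATGGgccttcgagtc

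CKX6 had a summit 2673 bp past its end, inside an exon of AT3G63450 outside the coding sequence and 2819 bp upstream of the noncoding RNA gene AT3G63445, with a fold of 4.32 and 114 dex reads against 20 mock reads. The nearest summits to CKX3 and CKX4 lay 8252 bp past the end and 9448 bp upstream, with folds of 3.65 and 4.49. CKX1, CKX2 and CKX7 had none within 10 kb.

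**Figure D2:**
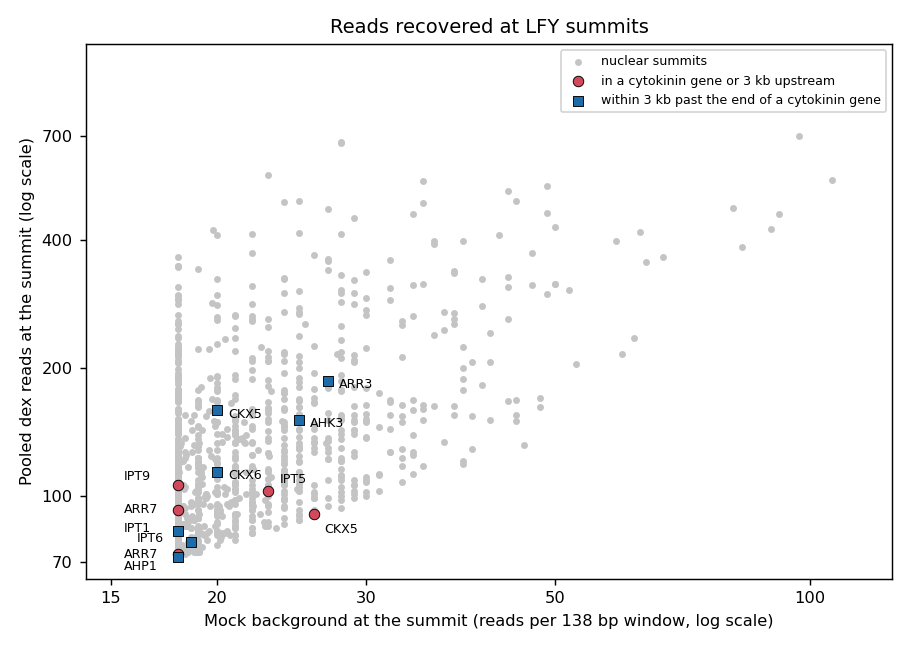
Pooled dex reads (y axis, log scale) against mock background (x axis, reads per window of 138 bp, log scale) recovered at each of the 1177 nuclear summits (grey). The 5 bound cytokinin summits (red circles) lie between 73 and 106 dex reads, in the lower part of the cloud, and the 7 summits within 3 kb past the end of a cytokinin gene (blue squares) reach 186 dex reads at ARR3. The vertical line of points at the left is the background floor of 18.0 reads.

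Compared with the rest of the list, the bound cytokinin summits lay in the lower and middle part. Their median fold was 3.42 (range 2.69 to 4.45), against 4.04 (2.23 to 18.6) for all nuclear summits. Their median of 93 dex reads (73 to 106) was set against 114 over all. A −log10 q-value of at least 20 was reached by 1 of 5 and by 61.7% of all. The background was the genome-wide floor at 3 of the 5 summits and at 376 of the 1177. The 95% intervals of the ratio overlapped for every pair of the 5. Overlap of intervals is not a test of a difference, and no pair of summits was tested.

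The place of the summits relative to the genes differed among the cytokinin genes. Summits inside the gene were found at 2 of 46 genes (4.35%) against 0.875% of all, and upstream summits at 2 of 46 (4.35%) against 3.59%. Within the 3 kb past the gene end, a region examined after the values were seen, 7 of the 46 genes had a summit (15.2%), against 2.67% of all protein-coding genes. These were ARR3, AHP1, AHK3, CKX5, CKX6, IPT1 and IPT6. At 5 of the 7 the summit was at the same time in or upstream of a neighbouring protein-coding gene, ARR3 and IPT1 being the exceptions. These wider windows were also chosen after the values were seen: within 3 kb on either side, 10 of 46 genes had a summit (21.7%) against 6.61% of all, and within 10 kb on either side 14 of 46 (30.4%) against 17.3%.

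The classes were joined, after their values were seen, into 30 signalling genes (ARR, AHP and AHK) and 16 metabolism genes (IPT and CKX). By the main rule 1 of 30 and 3 of 16 were bound, beside 4.32% of all protein-coding genes. Within 3 kb on either side the counts were 4 of 30 and 6 of 16, beside 6.61% of all, and within 10 kb they were 5 of 30 and 9 of 16, beside 17.3% of all. The signalling counts by the main rule (3.33%) and within 10 kb (16.7%) were near the share of all genes. The median distance to the nearest summit was 5.93 kb for IPT, 9.45 kb for CKX, 21.6 kb for AHK, 34.4 kb for type-B ARR, 38.4 kb for type-A ARR and 89.8 kb for AHP, against 41.1 kb for all protein-coding genes. The classes hold 3 to 11 genes and no test was made of these counts. In the same order of classes the median window was 4.67, 6.20, 8.74, 5.97, 5.34 and 4.71 kb long, against 5.08 kb for all protein-coding genes.

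**Figure D3:**
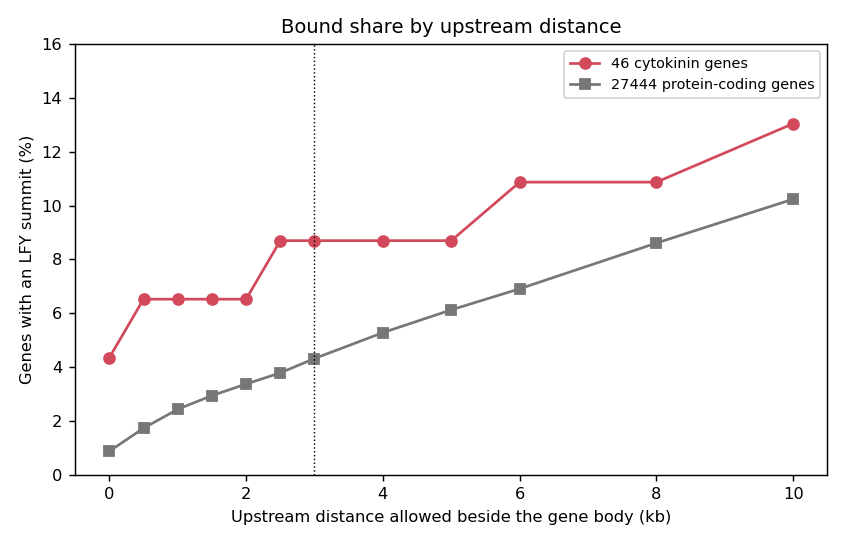
Share of genes with an LFY summit (y axis, percent) when the gene body and a growing upstream distance (x axis, kb) are searched, for the 46 cytokinin genes (red) and all 27444 protein-coding genes (grey). The dotted line marks the 3 kb of the main rule, where the shares are 8.70% and 4.32%; at 10 kb they are 13.0% and 10.2%.

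The gap between the cytokinin genes and all genes depended on the distance searched. With the gene body alone the shares were 4.35% and 0.875%, and with 10 kb upstream they were 13.0% and 10.2%. Each rise in the cytokinin curve is a single gene. The gene just inside the 3 kb limit was IPT9 at 2221 bp, and the next outside it upstream was IPT7 at 5927 bp.

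Exact cores in the DNA around the genes were about as frequent as elsewhere. Of the 46 cytokinin genes, 27 (58.7%) had an exact core in the gene or 3 kb upstream, against 56.4% of all protein-coding genes, at 1.62 and 1.72 cores per 10 kb. Of the 27 genes with a core 3 were bound, and of the 19 without one 1 was bound, beside 4.32% of all protein-coding genes. The share of all genes was not split by cores. Of the 3 bound genes with a core, only IPT9 had an exact core within 150 bp of its summit, and CKX5 and IPT5 did not. By class the density was 2.52 cores per 10 kb for IPT, 2.29 for CKX, 1.54 for type-B ARR, 1.41 for AHP, 0.980 for type-A ARR and 0.741 for AHK.

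The other genes of the pathway were described from a list of 29: the LOG enzymes that release active hormone, the CYP735A hydroxylases, the CRF response factors, the type-C regulators ARR22 and ARR24, the histidine kinase CKI1, the KMD F-box proteins that mark type-B regulators for degradation, the glucosyltransferases UGT76C1, UGT76C2 and UGT85A1, and the transporters ABCG14 and PUP14. Of these, 2 were bound (6.90%), CRF2 and KMD2, beside 4.32% of all protein-coding genes. CRF2 had a summit 885 bp upstream with 103 dex reads, a fold of 4.33 and a −log10 q-value of 24.5. KMD2 had 2 summits, 1462 bp and 2677 bp upstream. The first of them, with 175 dex reads against 18 mock reads, a fold of 7.31 and a ratio of 7.66 (4.71 to 13.2), was above the 5 bound cytokinin summits in fold, although its interval overlapped those of the IPT5, IPT9 and near ARR7 summits. The other had a fold of 3.00. Within the 3 kb past the gene end, 3 of the 29 genes had a summit (10.3%), against 2.67% of all protein-coding genes. These were CRF4 at 142 bp, KMD1 at 855 bp, and CRF2. The CRF2 summit past the gene end had a higher fold and more dex reads than the upstream one. No LOG, CYP735A, type-C, CKI1, UGT or transporter gene was bound. These groups hold only 1 to 9 genes each, beside a share of 4.32% over all protein-coding genes.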

How the data were processed

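The 9 ChIP-seq and input samples were represented by 1 peak list. Per the study's methods and the submitters' processing notes, reads were trimmed with Trimmomatic, mapped to TAIR10 with Bowtie2 2.3.1, filtered with SAMtools 1.7 and called with MACS2 (pooled dex over pooled mock ChIP, read extension 138 bp). The inputs were not used in calling. The deposited fold is a ratio of pileup to local background. The authors deposited −log10 p-values and −log10 q-values at each summit and kept q-values of at least 10 on that scale. The deposited score only restates the q-value as an integer and was left aside. The list of 1181 peaks, 1177 nuclear and 4 chloroplast, carries no library depth.

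Genes came from the RefSeq TAIR10.1 annotation (37899 genes and pseudogenes), whereas the authors annotated with Araport11. No peak interval ran past a chromosome end. Reads at each summit were recovered by solving fold and p-value under the MACS2 model (Python 3.11.15, numpy 2.4.6, scipy 1.17.1, matplotlib 3.10.9), which gave a solution for 1181 of 1181 peaks. At 26 of these 2 solutions were found and the one nearest to whole reads was used. The genome-wide background floor was 18.0 mock reads per window, and dex reads were scaled by 0.788. The libraries were pooled before peak calling, and reads carry no molecular identifiers. The ratio intervals, which are exact 95% intervals, therefore cover counting error only. They are conditional binomial, or Poisson on dex reads where the background was the floor, which was then held fixed. The solver, the core search and the window rule were tested on simulated data.

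Every bound cytokinin gene was named, as was every gene with a summit within 10 kb, every bound gene of the other pathway list and the annotated genes that share a summit in or within 3 kb of one of the 46 genes. Genes and lists were chosen with earlier results of these data known. Alternatives were other upstream distances, 1 kb downstream, the peak interval, the nearest start only, stricter q-values and other motif settings; 3 kb downstream was added after seeing the data.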

Additional observations from a re-analysis of the deposited data

How the results depend on the processing

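The count of 4 bound cytokinin genes was 3 with 1 kb or 2 kb upstream or with the nearest start only, 4 with 5 kb upstream and 5 when any base of the interval counted. It became 7 with 1 kb downstream included, 1 with the −log10 q-value raised to 20 (IPT9), 0 with it raised to 50, and 10 with 3 kb on either side, the last chosen after seeing the data. In the same order of settings the share of all genes was 2.43%, 3.37% and 3.02%, then 6.13%, 4.59%, 5.17%, 2.72%, 0.998% and 6.61%. The 2 bound genes of the other pathway list became 1 with 1 kb upstream and at a −log10 q-value of 50, and 4 with 5 kb upstream, with 1 kb downstream and with 3 kb on either side. The 1 cytokinin summit with an exact core became 0 within 50 bp and 5 with up to 1 mismatch. The median fold of 3.42 stayed between 3.25 and 4.45 under its 3 alternatives.

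No paired analysis was possible because the libraries were pooled before peak calling and the list holds no value per replicate. For the same reason no replicate was left out. Genes without a peak are those with no summit past the q-value limit at this depth, and the list gives no reads there. Whether binding at any of these genes goes with a change in their expression was not tested.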
